A study of Homo sapiens with 27 samples.

Results

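The 7 genes described here encode secreted growth factors of the epidermal growth factor (EGF) family: TGFA, AREG, EREG, HBEGF, BTC, EPGN and NRG1. They were selected by gene symbol, each matched 1 row, and they are 7 of the 36536 genes left after rows sharing a symbol were summed. All 7 passed the filter on low counts, which left 15575 genes for testing. The libraries came from MCF10A, an immortalised and non-tumorigenic line of human breast epithelial cells, so every value is from 1 line. Cells had been grown with 20 ng/ml EGF, serum and insulin and were then held for 18 h in medium lacking growth factors. One group was collected at that point without treatment (T0, 0 h). The others received fresh factor-free medium and were collected 24 h later, after phosphate-buffered saline (PBS), EGF, OSM (oncostatin M, a cytokine related to interleukin-6) or transforming growth factor beta (TGFB). Each ligand was given at 10 ng/ml. They were used singly, as pairs and as a mixture of all 3. Every one of the 9 groups had 3 libraries. The labels number the replicates but do not say whether they were separate cultures, so p-values measure only the spread between these libraries, which may be technical.

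EGF family ligands are made as precursors anchored in the cell membrane, and proteases such as ADAM17 and ADAM10 release the active part. The released ligand binds ERBB receptor kinases, which pair up and signal through RAS and the kinase ERK. TGFA (transforming growth factor alpha), AREG (amphiregulin) and EPGN (epigen) bind EGFR. HBEGF (heparin-binding EGF-like growth factor), EREG (epiregulin) and BTC (betacellulin) bind EGFR and ERBB4, and NRG1 (neuregulin) binds ERBB3 and ERBB4. In the breast, AREG is known for relaying the oestrogen signal during growth of the ducts, and cultured epithelial cells are known to make several of these ligands themselves. Messenger RNA was measured here, not released protein.

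The libraries held 30143162 to 52947078 estimated counts. Levels below are in CPM (counts-per-million units) of a library size that had been adjusted with TMM factors (trimmed mean of M values), and means are given ± SD with n = 3. All 8 markers of breast basal epithelium (KRT5, KRT14, KRT17, TP63, CDH1, ITGA6, ITGB4 and EGFR) were detected in all 27 libraries. Of the 3 luminal hormone-sensing markers, ESR1 (at most 3.42 CPM) and PRLR (at most 1.04 CPM) were detected in all 27 libraries and PGR was at 0 in 26. They summed to 1.42 to 2.09 CPM in PBS and 2.54 to 3.55 in OSM. Of the leukocyte markers, PTPRC reached at most 0.225 CPM in any library, and CD3E and LYZ were each at 0 in 15. Of the 3 endothelial markers, PECAM1 was detected in all 27 libraries, VWF was at 0 in 3 and CDH5 in 18. They summed to 2.60 to 4.59 CPM in PBS, 0.707 to 1.02 in EGF, 1.34 to 2.13 in OSM, 2.02 to 2.32 in TGFB and 0.406 to 0.815 in EGF+OSM. The 4 fibroblast markers summed to 128 to 133 CPM in PBS, 203 to 213 in TGFB and 12.7 to 14.9 in EGF+OSM. That sum came almost wholly from COL1A1 and DCN, while COL3A1 was at 0 in 22 libraries and PDGFRA in 9. The part of these markers in the values below was not tested.

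Of the 7 genes, 4 lie on the long arm of chromosome 4 (GRCh38, GENCODE 44) within 486.1 kb. EPGN (ENSG00000182585, chr4:74308470-74316789), EREG (ENSG00000124882, chr4:74365145-74388749) and AREG (ENSG00000109321, chr4:74445136-74455005) follow each other on the plus strand. EPGN and EREG are 48.4 kb apart, and EREG and AREG 56.4 kb. BTC (ENSG00000174808, chr4:74744759-74794523) is on the minus strand, 289.8 kb beyond AREG. TGFA (ENSG00000163235, chr2:70447284-70554193, minus strand) and HBEGF (ENSG00000113070, chr5:140332843-140346603, minus strand) are on other chromosomes.

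RefSeq (GRCh38.p14) gave a promoter for 6 of the 7 genes, all but NRG1. The 250 bases before the start are shown for the 3 neighbours on the plus strand, because AREG and EREG rose with EGF and with OSM while EPGN, in the same stretch, fell with both. Each is given 5′ to 3′ on the plus strand, and capitals mark the TATA box letters TATAAA and, in AREG, the cAMP response element letters TGACGTCA.
EPGN, chr4:74308220-74308469: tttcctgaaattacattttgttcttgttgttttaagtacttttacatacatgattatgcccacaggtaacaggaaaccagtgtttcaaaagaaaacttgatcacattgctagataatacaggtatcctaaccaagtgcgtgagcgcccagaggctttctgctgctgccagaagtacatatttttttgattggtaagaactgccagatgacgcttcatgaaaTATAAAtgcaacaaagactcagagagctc
EREG, chr4:74364895-74365144: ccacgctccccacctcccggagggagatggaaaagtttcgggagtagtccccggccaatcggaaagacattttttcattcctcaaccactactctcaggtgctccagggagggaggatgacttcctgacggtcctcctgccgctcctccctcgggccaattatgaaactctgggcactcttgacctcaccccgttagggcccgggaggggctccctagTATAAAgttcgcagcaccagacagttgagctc
AREG, chr4:74444886-74445135: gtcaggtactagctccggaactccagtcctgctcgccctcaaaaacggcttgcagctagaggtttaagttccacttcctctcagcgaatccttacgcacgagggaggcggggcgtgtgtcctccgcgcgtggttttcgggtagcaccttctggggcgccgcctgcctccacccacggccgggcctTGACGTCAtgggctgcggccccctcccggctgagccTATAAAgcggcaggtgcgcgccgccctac
TATAAA began 29 bases before the start in EPGN and in AREG and 32 bases before it in EREG. In the same window, 10.72% of 35116 RefSeq promoters held TATAAA on either strand. TGACGTCA lay 65 to 58 bases before the start of AREG and in no other promoter of the 6 genes, and 1.65% of all promoters held it. The GC box letters GGGCGG, on either strand, occurred 3 times in 1 of the 2 TGFA entries, 5 times in HBEGF (with 1 overlapping pair) and 1 time in AREG, against 42.64% of all promoters with at least 1. TGANTCA, the AP-1 site, was in none of the 6 genes' windows and in 6.57% of all promoters. TTCNNNGAA, the STAT site, was likewise in none of them and in 6.57%, and the SMAD palindrome GTCTAGAC in none and in 0.18%. These are matches of letters and say nothing of binding.

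Per kilobase of the canonical transcript, EPGN had the highest level of the 7 genes in PBS, at 39.2 ± 4.62 CPM per kb. TGFA followed at 15.3 ± 0.431, AREG at 8.72 ± 1.09 and HBEGF at 8.30 ± 0.419 CPM per kb. BTC, EREG and NRG1 were each under 1 CPM per kb there. The order was different with EGF, where AREG led at 227 ± 21.4 CPM per kb, ahead of TGFA at 24.9 ± 0.292 and EPGN at 24.8 ± 2.04. AREG also led in the other groups that received EGF, reaching 289 ± 31.5 CPM per kb in EGF+OSM, but with all 3 ligands its range overlapped that of TGFA. It led in OSM as well, at 48.5 ± 15.5 CPM per kb. TGFA led in TGFB, at 16.6 ± 1.04 CPM per kb, where its range overlapped that of EPGN, and in OSM+TGFB, at 24.9 ± 2.55, where it overlapped that of AREG.

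**Figure D1:**
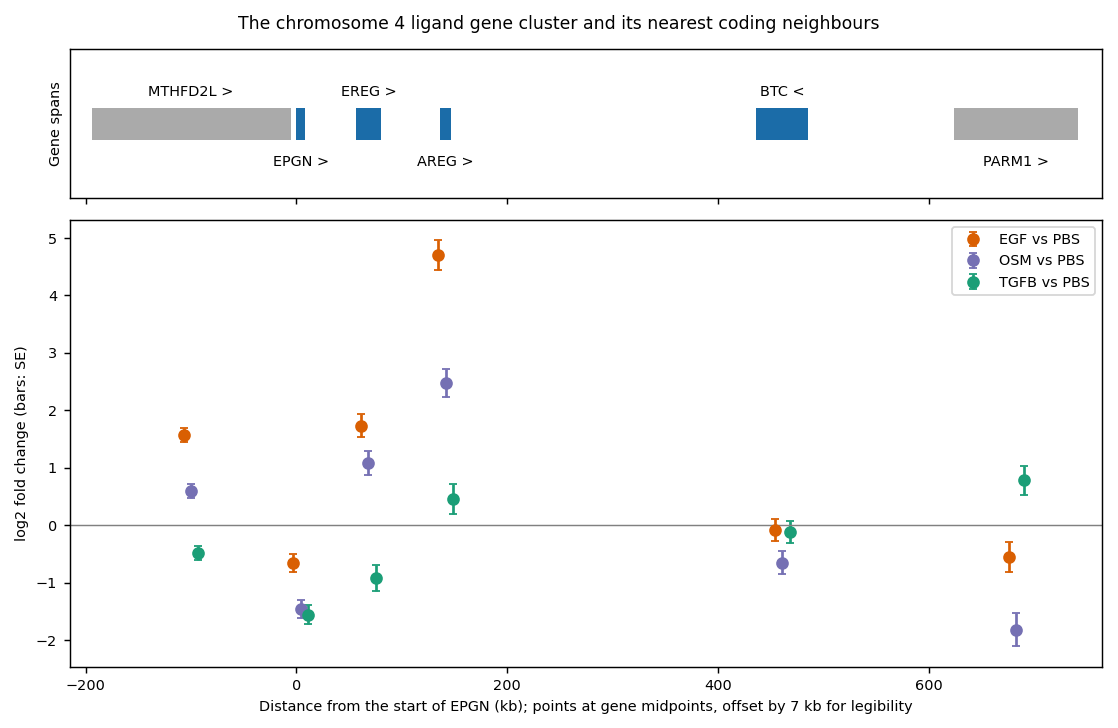
The upper panel maps the chromosome 4 genes by distance in kb from the start of EPGN (blue, the ligand genes, grey, the nearest coding neighbours, > or < for the strand), and the lower panel gives log2 fold changes against PBS with EGF, OSM and TGFB at each gene's midpoint, with standard errors. AREG and EREG have positive values with EGF and with OSM, and EPGN has negative ones with all 3 ligands.

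AREG moved most of the 7 genes: its highest and lowest group means were 33.1-fold apart. Its PBS libraries had 12.0, 10.9 and 9.36 CPM and its EGF libraries 302, 250.3 and 287. The OSM libraries had 56.8, 42.4 and 80.4 CPM, highest in the third, and the TGFB libraries 14.9, 13.8 and 15.8. No library of these 3 treated groups fell within the PBS range. AREG rose 26.0-fold with EGF (log2 fold change 4.70 ± 0.26 (SE), edgeR quasi-likelihood test, Benjamini-Hochberg adjusted p = 1.66e-12). It rose 5.55-fold with OSM (log2 2.47 ± 0.25, edgeR adjusted p = 2.75e-08). With TGFB the log2 fold change of AREG was 0.46 (edgeR adjusted p = 0.183), and a fit to the compared groups alone called it (adjusted p = 0.00238). In bulk RNA such as this, fewer cells making a transcript and less of it per cell cannot be told apart.

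In the combinations, AREG had 374, 312 and 384 CPM in EGF+OSM, the highest group. EGF+TGFB gave 129, 109.8 and 176 CPM and all 3 ligands 91.0, 77.5 and 114 CPM, ranges that overlapped. OSM+TGFB gave 24.6, 20.9 and 33.6 CPM, overlapping the T0 libraries at 20.8, 30.7 and 31.1. Every group that received TGFB beside another ligand was thus below the same group without it. Adding TGFB changed AREG by -1.02 ± 0.22 (log2) over EGF, -1.18 ± 0.23 over OSM and -1.92 ± 0.22 over EGF+OSM, with edgeR adjusted p of 4.33e-04, 2.33e-04 and 2.22e-07. Adding OSM to EGF gave a log2 difference of 0.35 (95% interval -0.09 to 0.79, edgeR adjusted p = 0.219), which a fit to these groups alone called (adjusted p = 0.0323). Adding OSM to EGF+TGFB, a comparison chosen after its values were seen, gave -0.55 ± 0.22 (edgeR adjusted p = 0.0679), and it was called without EGF+TGFB replicate 2 (-0.70) without EGF+OSM+TGFB replicate 3 (-0.71), by DESeq2 (adjusted p = 0.0462) and with no scaling factor (adjusted p = 0.0262). Over the 24 h in PBS, AREG fell by 1.35 on the log2 scale from T0 (edgeR adjusted p = 2.50e-04). From high to low the groups were EGF+OSM, EGF, EGF+TGFB, all 3 ligands, OSM, T0, OSM+TGFB, TGFB and PBS. Ranges of neighbours overlapped from EGF+TGFB through OSM and between T0 and OSM+TGFB.

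EREG, the next gene upstream, was rarer and shared the rise with EGF and OSM, but TGFB lowered it also on its own. Its PBS libraries had 4.35, 3.43 and 4.30 CPM, EGF 13.3, 12.0 and 14.8 and OSM 7.80, 6.06 and 11.7, again with the third OSM library highest. The TGFB libraries, at 1.59, 2.47 and 2.29 CPM, lay below all PBS libraries. EREG rose 3.33-fold with EGF and 2.11-fold with OSM (log2 1.74 ± 0.21 and 1.08 ± 0.21, edgeR adjusted p = 5.41e-08 and 8.17e-05). It fell 1.89-fold with TGFB (log2 -0.92 ± 0.23, edgeR adjusted p = 0.00297). EGF+OSM gave its highest level, 16.5, 15.4 and 21.1 CPM, above every EGF library. With OSM added to EGF the log2 difference was 0.40 (95% interval 0.00 to 0.80, edgeR adjusted p = 0.108), which a fit to these groups alone called (adjusted p = 0.0395). T0 libraries had 2.49, 3.36 and 3.22 CPM, and PBS differed from them by 0.41 (edgeR adjusted p = 0.156).

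With TGFB in the mixture EREG stayed near or below the PBS level. EGF+TGFB libraries had 2.89, 2.75 and 4.63 CPM, OSM+TGFB 2.16, 2.36 and 2.53 and all 3 ligands 2.89, 2.23 and 2.51 CPM, against 3.43 to 4.35 in PBS. The EGF+TGFB range overlapped PBS and the other ranges lay below it. In the order of group means, EGF+OSM, EGF and OSM stood apart from each other and from the rest, and all neighbours from PBS downwards overlapped. EREG fell by 1.99, 1.85 and 2.79 (log2) when TGFB was added to EGF, OSM and EGF+OSM (edgeR adjusted p = 2.89e-08, 2.41e-07 and 1.17e-10). With all 3 ligands it was below PBS (log2 -0.65 ± 0.23, edgeR adjusted p = 0.0145), a call lost without EGF+OSM+TGFB replicate 2 (adjusted p = 0.0565).

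EPGN, the remaining plus-strand gene of the stretch, was highest in cells without an added ligand and fell with each of the 7 treatments. T0 libraries had 90.3, 101 and 99.8 CPM and PBS libraries 94.7, 102 and 119, ranges that overlapped. EGF libraries had 60.8, 66.9 and 71.7 CPM, OSM 30.8, 35.8 and 47.7 and TGFB 30.3, 34.7 and 41.9. All were below every PBS library, and EGF libraries were above every OSM and TGFB library. EPGN fell 1.58-fold with EGF, 2.76-fold with OSM and 2.95-fold with TGFB (log2 -0.66 ± 0.15, -1.46 ± 0.16 and -1.56 ± 0.16, edgeR adjusted p = 6.71e-04, 6.96e-08 and 1.11e-07).

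EPGN was higher with EGF and OSM together than with OSM alone. EGF+OSM libraries had 53.6, 63.1 and 76.5 CPM, overlapping EGF alone and above all OSM libraries. Adding EGF to OSM raised EPGN by 0.76 ± 0.16 (log2, edgeR adjusted p = 3.33e-04), a comparison chosen after its values were seen. The lowest level was in OSM+TGFB, at 23.2, 25.4 and 33.2 CPM, with 38.2, 41.1 and 46.4 in EGF+TGFB and 38.3, 36.6 and 43.2 with all 3 ligands. In each background EPGN fell further with TGFB: it fell by 0.67 over EGF, 0.48 over OSM and 0.71 over EGF+OSM (log2, edgeR adjusted p = 0.00119, 0.0183 and 6.20e-04). The call over OSM was lost without OSM replicate 3 (-0.29, adjusted p = 0.161), without OSM+TGFB replicate 1 (-0.38) without OSM+TGFB replicate 2 (-0.44) and in a fit to these groups alone (adjusted p = 0.0722). EPGN thus formed 3 levels, PBS and T0, then EGF and EGF+OSM, then the other 5 groups, with overlap between neighbours within each level.

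**Figure D2:**
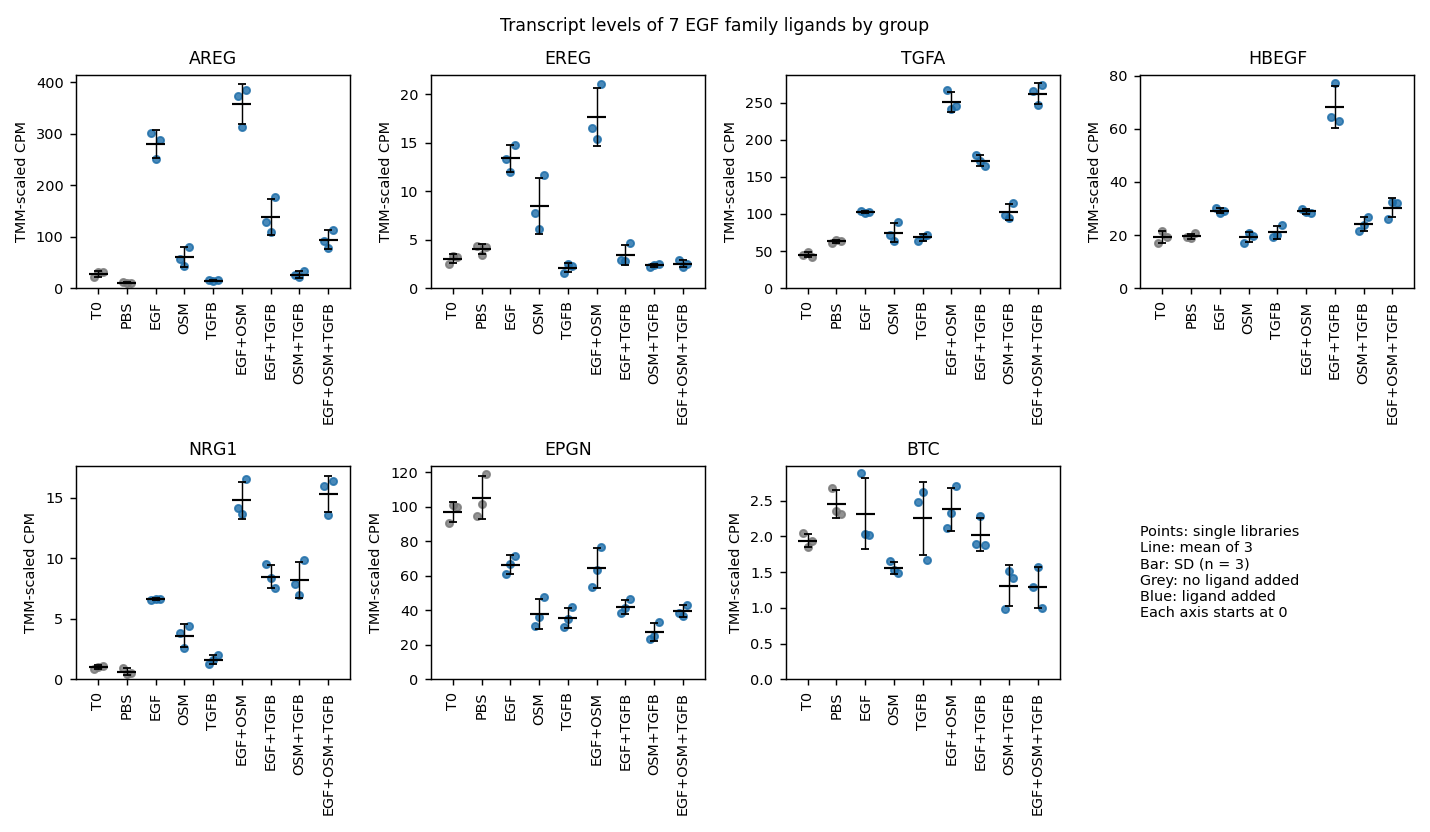
Level of each of the 7 genes in CPM (linear axes from 0) in the 9 groups, with 1 point per library, a line at each mean and a bar of 1 SD (n = 3). AREG spans 9.36 to 384 CPM, EPGN is highest in T0 and PBS, and HBEGF in EGF+TGFB.

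TGFA rose modestly with EGF and most where EGF and OSM were combined. PBS libraries had 61.4, 65.0 and 63.0 CPM and EGF libraries 104, 101 and 102, with no overlap. OSM libraries had 71.2, 64.2 and 88.9 CPM and TGFB libraries 63.8, 69.2 and 72.2, and both ranges overlapped PBS. TGFA rose 1.62-fold with EGF (log2 0.70 ± 0.09, edgeR adjusted p = 1.05e-07). The OSM difference of 0.24 ± 0.09 was called (edgeR adjusted p = 0.0184) but not without OSM replicate 3 (0.10, adjusted p = 0.278) or without PBS replicate 1 (0.22, adjusted p = 0.0596). It was also lost with upper-quartile scaling (adjusted p = 0.0618), no scaling factor (0.407), no filter (0.0633) and the compared groups alone (0.107). The TGFB difference was 0.12 (95% interval -0.07 to 0.30, edgeR adjusted p = 0.333).

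EGF+OSM gave TGFA 267, 241 and 246 CPM and all 3 ligands 266, 246 and 273, overlapping ranges above those of every other group. EGF+TGFB gave 179, 172 and 165 CPM and OSM+TGFB 98.1, 94.7 and 114. Against PBS, TGFA rose 3.98-fold with EGF+OSM and 2.72-fold with EGF+TGFB (edgeR adjusted p = 4.75e-16 and 1.84e-13). TGFB raised TGFA over EGF by 0.75 ± 0.09 and over OSM by 0.45 ± 0.09 (log2, edgeR adjusted p = 7.70e-08 and 9.95e-05). Over EGF+OSM the TGFB difference was 0.06, with a 95% interval of -0.12 to 0.24 (edgeR adjusted p = 0.562). From T0, at 44.8, 49.1 and 41.6 CPM, TGFA rose by 0.48 ± 0.09 in PBS (log2, edgeR adjusted p = 1.29e-04). T0 libraries were below all others, and neighbours overlapped between OSM+TGFB and EGF and among OSM, TGFB and PBS.

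HBEGF stood out in EGF+TGFB. PBS libraries had 19.3, 18.7 and 20.7 CPM, OSM 17.2, 20.7 and 19.7 and TGFB 19.4, 19.97 and 23.7, with overlapping ranges, and T0 libraries had 16.8, 21.4 and 19.3. EGF libraries had 30.1, 28.2 and 29.1 CPM and EGF+TGFB libraries 64.4, 77.4 and 63.1, above the libraries of every other group. HBEGF rose 1.49-fold with EGF and 3.49-fold with EGF+TGFB (log2 0.57 ± 0.10 and 1.80 ± 0.10, edgeR adjusted p = 1.93e-05 and 3.03e-14). TGFB alone gave 0.10 (95% interval -0.12 to 0.32, edgeR adjusted p = 0.496).

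The high HBEGF level was not seen when OSM was also present. All 3 ligands gave 26.2, 32.5 and 32.1 CPM and EGF+OSM 29.9, 28.6 and 28.2, both ranges overlapping EGF alone. Adding TGFB raised HBEGF over EGF by 1.23 ± 0.10 (log2, edgeR adjusted p = 1.63e-10), while over EGF+OSM the difference was 0.06 (95% interval -0.15 to 0.28, edgeR adjusted p = 0.615). Adding OSM to EGF+TGFB, a comparison chosen after its values were seen, lowered HBEGF by a log2 difference of -1.18 ± 0.10 (edgeR adjusted p = 1.04e-09). OSM added to EGF alone gave -0.01 (95% interval -0.22 to 0.20, edgeR adjusted p = 0.957).

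OSM+TGFB libraries had 21.6, 23.9 and 26.8 CPM of HBEGF, above PBS by 0.30 ± 0.10 (log2, edgeR adjusted p = 0.0133). With no scaling factor this value was -0.018 (adjusted p = 0.88), and that scaling moved the median of all genes to -0.32. It was also lost without PBS replicate 2 (adjusted p = 0.0515) without OSM+TGFB replicate 3 (adjusted p = 0.0964) and with upper-quartile scaling (adjusted p = 0.0742). TGFB added to OSM gave 0.33 ± 0.10 (edgeR adjusted p = 0.0101), a call lost without OSM replicate 1 (adjusted p = 0.0659), without OSM+TGFB replicate 3 (adjusted p = 0.077) and with no scaling factor (adjusted p = 0.161). HBEGF in PBS differed from T0 by 0.03 (95% interval -0.19 to 0.24).

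BTC stayed low in every group, at 0.983 to 2.89 CPM or 32 to 130 counts per library, and OSM lowered it. PBS libraries had 2.68, 2.35 and 2.32 CPM and OSM libraries 1.65, 1.53 and 1.48, all below PBS. OSM+TGFB libraries had 0.983, 1.52 and 1.42 CPM and those with all 3 ligands 1.30, 1.57 and 1.00. BTC fell 1.57-fold with OSM, 1.87-fold with OSM+TGFB and 1.90-fold with all 3 ligands (edgeR adjusted p = 0.0054, 3.43e-04 and 2.21e-04). EGF+OSM libraries, at 2.11, 2.33 and 2.70 CPM, overlapped PBS (log2 -0.04, 95% interval -0.44 to 0.36). Adding EGF to OSM raised BTC by 0.62 ± 0.20 (log2, edgeR adjusted p = 0.00905). TGFB lowered it over EGF+OSM, by a log2 difference of -0.89 ± 0.20 (edgeR adjusted p = 4.99e-04). BTC was not called against PBS with EGF (-0.08, 95% interval -0.48 to 0.32) or with TGFB (-0.12, -0.52 to 0.29). With EGF+TGFB it was at -0.27 (edgeR adjusted p = 0.215), and no scaling factor made that a call (-0.48, adjusted p = 0.0303). The groups thus fell into 6 with overlapping neighbours, T0 among them at 1.94 ± 0.0968 CPM, and a lower set of OSM, OSM+TGFB and all 3 ligands.

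NRG1, the ligand of ERBB3 and ERBB4, was low in PBS and rose with every treatment. The gene (ENSG00000157168) lies at chr8:31639222-32855666 on the plus strand, and its many isoforms cannot be told apart in counts per gene. PBS libraries had 0.975, 0.431 and 0.513 CPM, from as few as 20 counts, and T0 libraries 0.873, 1.04 and 1.14. EGF libraries had 6.54, 6.66 and 6.63 CPM, OSM 3.84, 2.60 and 4.43 and TGFB 1.25, 1.58 and 1.99. No treated library fell in the PBS range, and the order EGF above OSM above TGFB held without overlap. NRG1 rose 10.4-fold with EGF, 5.67-fold with OSM and 2.54-fold with TGFB (log2 3.38 ± 0.23, 2.50 ± 0.24 and 1.34 ± 0.27, edgeR adjusted p = 1.27e-12, 1.48e-09 and 2.40e-04).

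EGF+OSM gave NRG1 14.2, 13.6 and 16.5 CPM and all 3 ligands 16.0, 13.6 and 16.3, overlapping and highest. EGF+TGFB gave 9.51, 8.36 and 7.57 CPM and OSM+TGFB 7.83, 6.95 and 9.87, also overlapping. OSM raised NRG1 over EGF by 1.16 ± 0.17 and TGFB raised it over OSM by 1.19 ± 0.18 (log2, edgeR adjusted p = 6.20e-06 and 5.94e-06). TGFB over EGF gave 0.36 (95% interval -0.0016 to 0.72, edgeR adjusted p = 0.0808), a difference called without EGF+TGFB replicate 3 (adjusted p = 0.0432) and in a fit to these groups alone (adjusted p = 0.0131). Over EGF+OSM it gave 0.05 (-0.30 to 0.40). From T0 to PBS the difference was -0.68 (edgeR adjusted p = 0.0571), and -1.11 without PBS replicate 1 (adjusted p = 0.00583). DESeq2 called it as well (adjusted p = 0.0285).

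**Figure D3:**
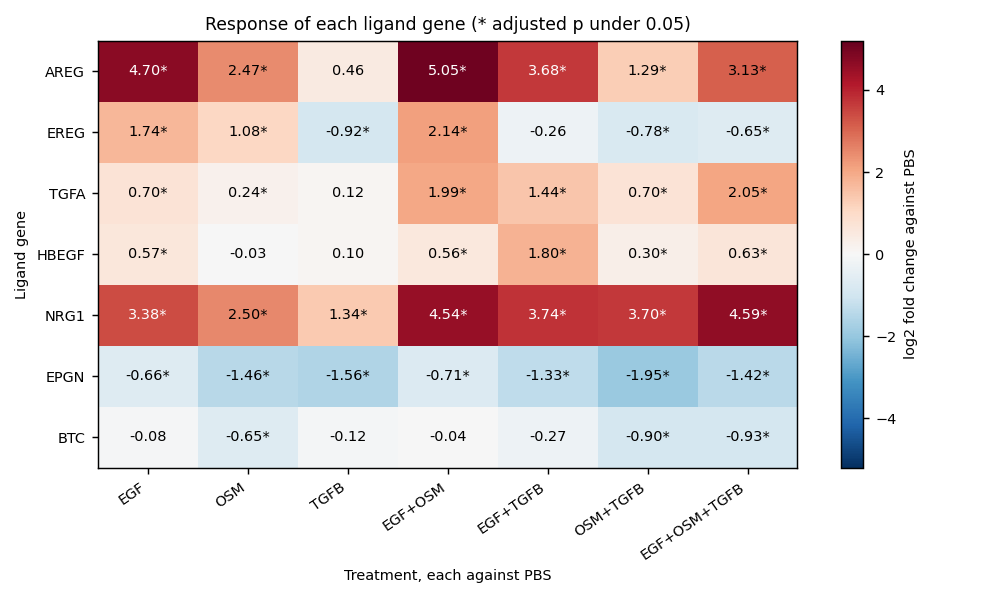
Log2 fold change against PBS of the 7 genes (rows) with each of the 7 treatments (columns), printed in each cell and coloured red for higher and blue for lower, with a star for an adjusted p under 0.05. AREG and NRG1 have the largest positive values with EGF (4.70 and 3.38), and EPGN is negative with every treatment.

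By comparison, each count of called genes among the 7 is given beside the share of all tested genes called, which was high. EGF changed 6 of the 7 (AREG, NRG1, EREG, TGFA and HBEGF higher, EPGN lower), where 73.5% of all tested genes were called. OSM changed 6 (AREG, NRG1, EREG and TGFA higher, EPGN and BTC lower), against 63.4% of all genes. TGFB changed 3 (NRG1 higher, EPGN and EREG lower), against 35.6%. EGF+OSM changed 6, all but BTC, against 77.2%, and EGF+TGFB changed 5, all but EREG and BTC, against 73.7%. OSM+TGFB changed all 7 (EPGN, EREG and BTC lower), against 66%, and the 3 ligands together changed all 7 with the same genes lower, against 74.4%. PBS against T0 changed 2, TGFA higher and AREG lower, against 35.1% of all genes. The median log2 fold change of the 7 was 0.70 with EGF and 0.24 with OSM, beside -0.07 and 0.00 over all tested genes. These comparisons share the PBS libraries.

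In the comparison of OSM with EGF, all 7 genes were lower with OSM, where 56.8% of all genes were called and 28.8% were lower. AREG differed most (log2 -2.23 ± 0.22, edgeR adjusted p = 5.45e-08), then NRG1 (-0.88 ± 0.18) and EPGN (-0.80 ± 0.16). The BTC call was lost without EGF replicate 1 (-0.39) and the EREG call without OSM replicate 2 (-0.46). Adding EGF to OSM, a comparison chosen after its values were seen, raised all 7 genes, against 61.7% called and 29.9% higher among all genes. The values ran from 0.59 for HBEGF to 2.58 for AREG. Adding OSM to EGF raised 2 of 7, TGFA by 1.30 ± 0.09 (edgeR adjusted p = 1.30e-11) and NRG1, against 34.9% called and 17.8% higher among all genes.

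Adding TGFB to EGF or to OSM moved the ligands in both directions, as it did all tested genes. Over EGF it changed 5 of 7, with HBEGF and TGFA higher and AREG, EREG and EPGN lower. Of all genes 54.6% were called there, 27% higher and 27.7% lower. Over OSM, TGFB changed 6, with NRG1, TGFA and HBEGF higher and the same 3 chromosome 4 genes lower. Of all genes 51.6% were called there, 26.1% higher and 25.6% lower. Over EGF+OSM, TGFB changed 4, AREG, EREG, EPGN and BTC, all lower, against 61.1% called and 29.5% lower among all genes. These are the 4 genes of the chromosome 4 stretch. Adding OSM to EGF+TGFB changed 4, against 26.4%: TGFA (0.61) and NRG1 (0.85) were higher and HBEGF and BTC (-0.66) lower. The BTC call there was lost without EGF+TGFB replicate 2 (adjusted p = 0.095), without EGF+OSM+TGFB replicate 1 (0.0528) and without EGF+OSM+TGFB replicate 3 (0.106).

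Each combination was then compared with the sum of its single ligands. The difference between the combined and the summed log2 value, both against PBS, is called the departure here. It is 0 where log2 changes simply add, that is, where fold changes multiply. A negative departure can thus go with a CPM level above the sum of the single CPM increases, which was not tested. For EGF+OSM, 5 of the 7 genes departed, where 38.7% of all genes did. TGFA was above its sum by 1.05 ± 0.12, since the single changes summed to 0.94 and the pair gave 1.99 (edgeR adjusted p = 1.79e-07). AREG was below its sum, which was 7.17 against 5.05 for the pair, a departure of -2.12 ± 0.32 (edgeR adjusted p = 2.53e-05). NRG1 also fell short, with a departure of -1.35 ± 0.30. EPGN departed by 1.42 ± 0.22, its fall being smaller than the sum. EREG had -0.68 ± 0.28 (edgeR adjusted p = 0.0597), which was called without OSM replicate 2 (-0.88) and without EGF+OSM replicate 3 (-0.83). Without OSM replicate 3 it was -0.38 (adjusted p = 0.265). The BTC departure of 0.69 ± 0.27 (edgeR adjusted p = 0.0471) was lost in 10 of the 12 fits that left out a library of these groups (0.59 to 0.74), and held without EGF replicate 1 and without EGF+OSM replicate 1.

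For EGF+TGFB, 6 of 7 departed, against 29.8% of all genes. HBEGF exceeded its sum of 0.67 by 1.13 ± 0.14 (edgeR adjusted p = 2.45e-06), and TGFA its sum of 0.81 by 0.63 ± 0.12 (edgeR adjusted p = 3.69e-04). AREG (-1.48 ± 0.34), EREG (-1.07 ± 0.32) and NRG1 (-0.98 ± 0.32) were below their sums, with edgeR adjusted p of 0.00238, 0.012 and 0.021. EPGN fell less than its sum, by 0.89 ± 0.22. The NRG1 departure was lost without PBS replicate 2 (-0.75), PBS replicate 3 (-0.86), TGFB replicate 3 (-0.81) or EGF+TGFB replicate 3 (-0.85).

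For OSM+TGFB, 4 of 7 departed, against 23.3%: AREG (-1.64 ± 0.35), EPGN (1.07 ± 0.23), EREG (-0.93 ± 0.33) and TGFA (0.34 ± 0.12). The TGFA and EREG calls, with edgeR adjusted p of 0.0477 and 0.0395, were lost in 9 and 8 of the 12 fits that left out a library. The TGFA call held without OSM replicate 3, TGFB replicate 3 or OSM+TGFB replicate 2, and had 0.24 to 0.37 in the other fits. The EREG call held without PBS replicate 1, OSM replicate 1, OSM replicate 2 or TGFB replicate 1, and had -0.99 to -0.63 in the other fits. For the 3 ligands together, 5 of 7 departed, against 48%. AREG fell short of its sum of 7.63 by the most, with a departure of -4.51 ± 0.51 (edgeR adjusted p = 3.92e-07), then NRG1 (-2.64 ± 0.49) and EREG (-2.55 ± 0.45). Without PBS replicate 1 the NRG1 departure was -3.48. EPGN and TGFA were above their sums by 2.27 ± 0.31 and 1.00 ± 0.17. HBEGF departed by -0.02 (edgeR adjusted p = 0.953), in contrast to its value in EGF+TGFB.

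**Figure D4:**
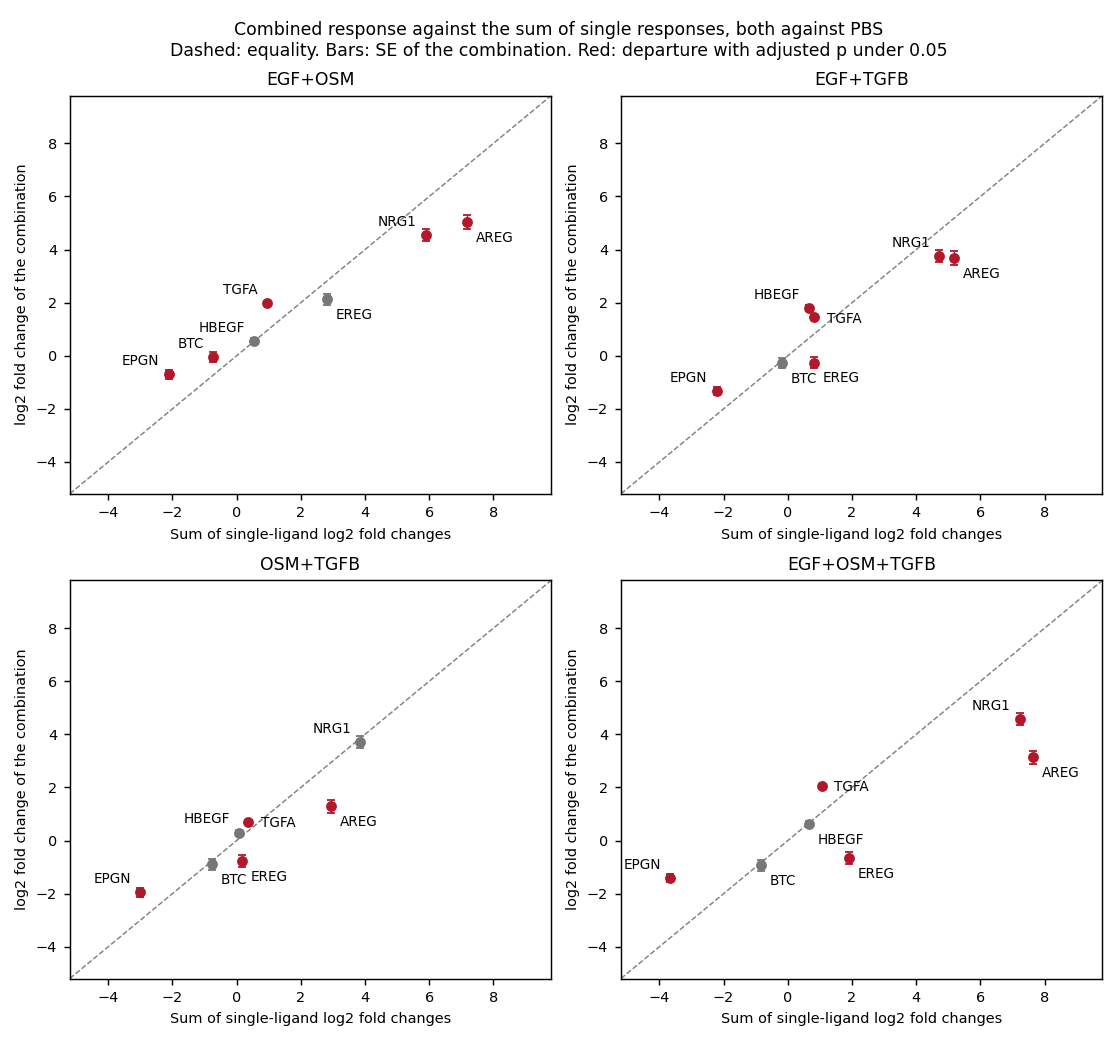
Log2 fold change of each combination against PBS (y axis, bars are standard errors) against the sum of the single-ligand log2 fold changes (x axis), 1 panel per combination, with equality dashed and called departures in red. TGFA lies above equality in all 4 panels, AREG below in all 4, and HBEGF is called in EGF+TGFB.

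The receptors of these ligands moved in different directions. EGFR had 393 ± 17.5 CPM in PBS and 521 ± 34.1 with EGF, 522 ± 21.8 with OSM and 539 ± 1.998 with TGFB (log2 0.41 ± 0.05, 0.41 ± 0.05 and 0.46 ± 0.05, all called). ERBB3, the kinase-poor receptor of NRG1, fell from 139.6 ± 5.96 CPM in PBS to 30.2 ± 4.65 with EGF and 41.5 ± 10.1 with OSM. Its log2 changes were -2.21 ± 0.15 and -1.75 ± 0.15 (edgeR adjusted p = 3.33e-11 and 1.77e-09), and it reached 11.02 ± 1.61 CPM in EGF+OSM. ERBB3 was thus lowest in the group where NRG1 was among the highest. ERBB2, which has no ligand of its own, fell from 140.0 ± 8.14 to 86.3 ± 5.75 CPM with EGF (log2 -0.70 ± 0.06) and to 97.5 ± 8.13 with OSM (-0.52 ± 0.06). With TGFB, neither ERBB2 (-0.04) nor ERBB3 (-0.13) was called. ERBB4 had 0 to 6 counts per library and did not pass the filter.

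The other family ligands were scarce. The EGF transcript itself had 3 to 22 counts per library and fell with OSM (log2 -1.36 ± 0.44). NRG4 fell from 4.49 ± 0.879 CPM in PBS to 2.02 ± 0.292 with EGF and 2.76 ± 0.379 with OSM (log2 -1.15 ± 0.21 and -0.70 ± 0.21). NRG2 fell from 1.14 ± 0.342 to 0.286 ± 0.0983 CPM with OSM (log2 -2.001 ± 0.43). NRG3 had at most 2 counts per library and was not tested. Of the 3 tested, 1 fell with EGF and 3 with OSM, and none was called with TGFB, beside 38.6% of all tested genes lower with EGF, 29.8% lower with OSM and 35.6% called with TGFB.

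Genes that act on the ligands and receptors were described by lists. Among all tested genes, 34.9% were higher and 38.6% lower with EGF, 33.5% higher and 29.8% lower with OSM, and 19.9% higher and 15.8% lower with TGFB. Of 14 genes of ligand shedding and processing, EGF raised 7 and lowered 7, OSM raised 8 and lowered 4, and TGFB raised 7 and lowered none, with medians of 0.04, 0.14 and 0.23 (log2). ADAM19, a membrane metalloprotease that can cleave neuregulin, rose most with each ligand, from 3.28 ± 0.216 CPM in PBS to 51.4 ± 5.66 with EGF, 110.2 ± 24.5 with OSM and 51.1 ± 4.91 with TGFB (log2 3.97 ± 0.18, 5.07 ± 0.18 and 3.96 ± 0.18). RHBDL2, a rhomboid protease, fell most with EGF and with OSM (-1.47 ± 0.17 and -1.51 ± 0.17). Of 10 receptor feedback inhibitors, EGF raised 4 and lowered 4, OSM raised 4 and lowered 4, and TGFB raised 5 and lowered 1, beside 73.5%, 63.4% and 35.6% of all genes called. SH3KBP1, a partner of the CBL ubiquitin ligases, rose most with each ligand (1.51 ± 0.07, 1.05 ± 0.07 and 0.72 ± 0.07). CBLB, one of those ligases, fell most with EGF (-2.09 ± 0.11) and OSM (-1.20 ± 0.11), and LRIG2 with TGFB (-0.23 ± 0.08).

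Of 16 adaptors and kinases between receptor and ERK, EGF raised 7 and lowered 8, OSM raised 5 and lowered 7, and TGFB raised 5 and lowered 2. Of all tested genes, 73.5%, 63.4% and 35.6% were called with EGF, OSM and TGFB. The largest rises were NRAS with EGF (0.77 ± 0.06), SHC1 with OSM (0.72 ± 0.04) and GAB2 with TGFB (0.62 ± 0.19). The largest falls were GAB2 with EGF (-1.08 ± 0.20), MAPK3, which encodes ERK1, with OSM (-0.77 ± 0.09) and MAP2K1, which encodes MEK1, with TGFB (-0.26 ± 0.06). The 16 ERK output genes, transcripts known to follow ERK activity, all rose with EGF (a list chosen with earlier results of these libraries known, median 1.98, beside -0.07 over all tested genes). With OSM 14 rose and 1 fell (median 0.90, beside 0.00 over all genes), and with TGFB 8 rose and 1 fell (median 0.38, beside -0.01). The shares of all tested genes higher were 34.9% with EGF, 33.5% with OSM and 19.9% with TGFB. DUSP6, a phosphatase of ERK, rose most with EGF (4.15 ± 0.20) and OSM (3.62 ± 0.20), and the ETS factor ETV5 with TGFB (1.75 ± 0.20). SPRY2 was the gene lowered by OSM (-0.61 ± 0.10) and MYC the one lowered by TGFB (-0.38 ± 0.09).

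Likeness of pattern was measured as Pearson r over the 9 group means of log2(CPM + 1), against 12120 protein-coding genes with a mean of at least 1 CPM. It is a description, and the 9 points share libraries and treatments. Among the 7 genes themselves, TGFA and NRG1 were most alike (r = 0.924), then AREG and NRG1 (0.780), AREG and EREG (0.730) and TGFA and AREG (0.717). AREG and EPGN, from the same stretch of chromosome 4, had r = -0.03. The genes closest to AREG were ILKAP (0.997), CDC25A (0.996) and DNAJC9 (0.995), and 1193 genes had r above 0.9 with it. For EREG they were MTREX (0.989), WDR3 (0.988) and TMA16 (0.988), with 501 genes above 0.9. For NRG1 they were KRT18 (0.994), AKT1 (0.993) and YAP1 (0.987), with 697 above 0.9. TGFA was closest to TMEM41A (0.982), PIK3C2A (0.978) and IL1A (0.972), with 194 above 0.9. The other patterns were shared less widely. EPGN was closest to LYRM2 (0.982), NDUFA6 (0.959) and SDHB (0.954), with 41 genes above 0.9. HBEGF was closest to CHST7 (0.957), ZDHHC21 (0.939) and PEX26 (0.933), with 21, and BTC to MANSC1 (0.974), RDH13 (0.970) and STRBP (0.955), with 17. With log2(CPM + 0.1), MAP4K4 took the place of YAP1 for NRG1 and ACD that of CDC25A for AREG. The genes named for each other member stayed the same, though not always in the same order.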

How the data were processed

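Polyadenylated RNA of 27 MCF10A libraries was analysed. The authors deposited 1 table of estimated counts for 40487 Ensembl genes, in whole numbers. Per the submitters' processing notes, Trim Galore 0.4.3, cutadapt 1.10, FastQC 0.11.5, kallisto 0.46.2 and R 3.5.0 were used with GRCh38.p5 and hg38. Kits were stranded per the labels' protocols. Estimated counts share reads between similar transcripts, so near-identical genes and isoforms are uncertain. Rows sharing a symbol were summed, leaving 36536 genes, and 7165 rows without a symbol kept their identifier. Depth was 30143162 to 52947078 counts per library.

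Counts were fitted in R 4.3.3 with edgeR 4.0.16: TMM scaling (factors 0.867 to 1.12), the default expression filter by group, a robust quasi-likelihood fit with 1 mean per group (18 residual degrees of freedom) and Benjamini-Hochberg adjustment over 15575 genes for each of 19 comparisons. Calls needed an adjusted p under 0.05. Of the comparisons, 2 were added after seeing the data. Standard errors were derived from the log2 fold change and the F statistic of its test. Intervals are at 95%, not adjusted for the number of comparisons, and use the 18 residual degrees of freedom. The test also draws on the spread of other genes, so an interval can be slightly wider than its p-value implies. Alternatives were other scalings, no filter, DESeq2 1.42.0, unsummed rows, the compared groups alone, a replicate block, an added 2-fold limit and leaving out each library.

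The members and lists were chosen with earlier results of these data known. All members, the ERBB receptors and the other ligands are named. From the other lists, the called gene with the largest rise and that with the largest fall for each single ligand are named, and 3 genes per member by likeness of pattern. Coordinates and transcript lengths are from GENCODE 44 and promoters from RefSeq (GRCh38.p14). One leukocyte marker is not reported here.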

Additional observations from a re-analysis of the deposited data

How the results depend on the processing

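Among 1064 values of the 7 genes under other scalings, filters, tools and designs, 1033 kept their call (higher, lower or not called). Among 987 values from fits that left out a library, 935 did. Called directions reversed for 1 value: HBEGF in OSM+TGFB against PBS was -0.018 with no scaling factor, an alternative chosen after seeing the data. That setting moved the median of all genes to -0.32 in OSM+TGFB, and higher genes made up 28.1% of all called there in place of 51.9%. The values that kept their call include uncalled ones that changed sign, 37 from the fits without a library and 7 from the other alternatives. With an added 2-fold limit, the number of the 7 genes called was 3 with EGF (27.5% of all genes), 3 with OSM+TGFB (24.2% of all genes), 4 with all 3 ligands (31.4% of all genes), 1 for PBS against T0 (5.52% of all genes) and 1 for OSM against EGF (13.1% of all genes). Under the same limit it was 3 for TGFB added to EGF (9.46% of all genes), 3 for TGFB added to OSM (9.14% of all genes), 2 for TGFB added to EGF+OSM (15% of all genes), 1 for OSM added to EGF+TGFB (5.75% of all genes) and 4 for EGF added to OSM (14.5% of all genes). It was 4 with OSM (20.1% of all genes), 2 with TGFB (5.8% of all genes) and 4 with EGF+OSM (34.7% of all genes). It was 5 with EGF+TGFB (30.1% of all genes) and 2 for OSM added to EGF (8.01% of all genes). The departures then called were 4 for EGF+OSM (10.3% of all genes) and 4 for all 3 ligands (21.1% of all genes). They were 3 for EGF+TGFB (4.26% of all genes) and 2 for OSM+TGFB (4.63% of all genes). The OSM+TGFB departures also numbered 2 without the filter and with the compared groups alone, and 2 to 4 without a library. OSM added to EGF called 4 with the compared groups alone. The cause of these changes was not tested, apart from the limit itself.

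Same-numbered libraries deviated together in 85 of 108 pairs (correlation above 0.1, lowest -0.07, median 0.17), and all 27 libraries correlated best with their own number, a hint from the data. The column names carry the replicate number and a running number that follows it in blocks. Neither they nor the other labels say what those blocks stand for. A replicate block added calls for NRG1 in PBS against T0 (-0.69, adjusted p = 0.0323) and TGFB added to EGF (0.37, 0.034), for EREG in OSM added to EGF (0.39, 0.0291) and the EGF+OSM departure (-0.66, 0.0135), and for AREG in OSM added to EGF+TGFB (-0.55, 0.0156). The block changed no other call of the 7 genes. Depth limits BTC (32 to 130 counts per library) and NRG1 in PBS most.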

Other observations

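The nearest coding genes on either side of the chromosome 4 ligand genes were also read from the fit, chosen by position after the ligand values were seen. MTHFD2L, a mitochondrial enzyme of folate metabolism, ends 5.4 kb before EPGN on the plus strand. Its PBS level was 5.16 ± 0.537 CPM (SD, n = 3), against 15.3 ± 1.59 with EGF. OSM gave 7.81 ± 0.655 CPM and TGFB 3.68 ± 0.121. MTHFD2L rose with EGF (log2 fold change 1.57 ± 0.12, edgeR quasi-likelihood adjusted p = 5.18e-12) and with OSM (0.60 ± 0.12), and fell with TGFB (-0.48 ± 0.13). TGFB also lowered it over EGF (-1.08 ± 0.11) and over EGF+OSM (-1.87 ± 0.12). Those directions are the ones EREG showed in these comparisons, while EPGN, which lies between them, fell with EGF and OSM. MTHFD2L and EREG differed in others. In EGF+TGFB against PBS, MTHFD2L rose (0.49, edgeR adjusted p = 6.63e-04) and EREG was not called (-0.26). From T0 to PBS, MTHFD2L fell (-0.68, edgeR adjusted p = 5.89e-05) and EREG was not called (0.41). With all 3 ligands, EREG was lower than in PBS and MTHFD2L was not called (-0.13). As many as 501 genes had r above 0.9 with EREG. The highest MTHFD2L level was in EGF+OSM, at 17.2 ± 2.27 CPM.

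PARM1, a mucin-like membrane protein gene 138.6 kb beyond BTC, had 1.15 ± 0.0687 CPM in PBS and 0.316 ± 0.188 with OSM (log2 -1.82 ± 0.29, edgeR adjusted p = 5.47e-06). It rose with TGFB to 1.98 ± 0.138 CPM (0.78 ± 0.25) and was not called with EGF (-0.56, edgeR adjusted p = 0.058). BTC, its neighbour, fell with OSM as well, where 29.8% of all tested genes were lower. With EGF+OSM, PARM1 was lower than in PBS (-1.43, edgeR adjusted p = 5.81e-05) and BTC was not called (-0.04). With TGFB, BTC was not called either (-0.12).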
